A study of Mus musculus with 6 samples.

Results

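Kruppel-like factors were followed through the response of mouse macrophages to lipopolysaccharide (LPS). The 8 genes described are Klf2, Klf3, Klf4, Klf6, Klf7, Klf9, Klf10 and Klf13, found by their symbols in a table of 24752 genes. They are 8 of the 16 Klf genes in that table. All 8 passed the filter on low values, which kept 10962 genes with at least 1 FPKM (fragments per kilobase of exon, scaled to library size) in at least 2 libraries.

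Kruppel-like factors are transcription factors that bind GC-rich and CACCC sequences through zinc fingers at their C-terminal end. The fingers are much alike across the family, while the N-terminal parts differ and recruit different cofactors. Klf2, Klf4, Klf6 and Klf7 belong to the group that is best known for activation, Klf3 to the group that binds the corepressor CtBP, and Klf9, Klf10 and Klf13 to the group that binds Sin3 corepressors. In myeloid cells Klf2 is known as a brake on inflammatory activation, Klf4 for its part in monocyte differentiation and alternative activation, and Klf6 for supporting inflammatory gene expression.

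The cells were bone marrow-derived macrophages (BMDMs), grown for 7 days from marrow of mice 8 to 10 weeks old in medium with 10 ng/mL M-CSF, the cytokine that drives macrophage differentiation. There were 3 groups with 2 libraries each, B and C. The control group is labelled control, the LPS group received 100 ng/ml LPS for 3 h, and the Glul_LPS group is labelled as overexpressing Glul, the gene of glutamine synthetase, with the same LPS. The protocol gives lentiviral vectors, control or Glul, 36 h ahead of the LPS. Which of these vectors the control and LPS libraries received is not stated in the labels. Strain and sex of the mice, and the promoter of the vector, are not given in the labels. Nothing in the labels ties B and C to different mice or cultures, so the p-values reflect only how far these libraries varied, and that variation may be technical.

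Library totals recovered from the table were 15649764 to 18691669 fragments. The 2 libraries of each group differed by more than sampling noise, with a mean chi-square per gene of 3.49 to 4.96 where 1 is the noise alone, so none was counted as a duplicate. All 5 cytokine and effector genes used to check the LPS response rose (median log2 change 6.46), Cxcl10 by 7.48, Nos2 by 6.76, Il6 by 6.46 and Tnf by 4.45. Glul itself had 140.2 and 140.3 FPKM in control, 30.6 and 33.4 in LPS, and 37.2 and 37.7 in the libraries labelled as overexpressing Glul. Against LPS that was a log2 change of 0.22 ± 0.05 (SE; limma adjusted p 0.122), so the label was not borne out by a call at this gene, though voom on recovered fragments gave 0.24 with an adjusted p of 0.0351. The group is called Glul_LPS by its label throughout. Of the 8 macrophage markers none was under 1 FPKM in every library, and Lyz2, which encodes lysozyme, led them with a mean of 15987 FPKM. The summed macrophage markers were 21903 to 22658 FPKM in control, 17387 to 18706 in LPS and 19906 to 21158 in Glul_LPS. Lyz2 made up most of these sums, with means of 18200, 13719 and 16043 FPKM in the same order. The markers did not move together: means of Cd14, Fcgr1 and Mertk were higher in LPS than in control. Those of Lyz2, Adgre1, Csf1r, Cd68 and Itgam were lower. The 4 T cell, 4 erythroid and 3 epithelial markers found in the table were under 1 FPKM in all libraries (highest means 0.164 for Trac, 0.118 for Hba-a1 and 0.0225 for Epcam), as were 3 of 4 B cell, 3 of 5 neutrophil, 3 of 5 endothelial and 2 of 5 fibroblast markers, whose top means were 0.979 for Cd79b, 6.12 for S100a8, 1.78 for Kdr and 1.08 for Col1a1. Itgax, which marks dendritic cells and also macrophages, had 37.5 and 34.7 FPKM in LPS and 21.9 and 17.0 in Glul_LPS. The 4 dendritic cell markers summed to 38.0 to 42.5 FPKM in control, 36.1 to 38.7 in LPS and 18.1 to 22.8 in Glul_LPS. Itgax made up most of these sums, with means of 40.1, 36.1 and 19.4 FPKM in the same order. Xcr1 moved otherwise, with means of 0.118 FPKM in control, 1.19 in LPS and 0.979 in Glul_LPS. Flt3 and Zbtb46, 2 of the 4, were under 1 FPKM throughout. The part of these marker shifts in the differences below was not tested. In bulk RNA, fewer cells of a type and less RNA per cell cannot be told apart.

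In control macrophages Klf6 was the most abundant of the 8, at 61.6 ± 0.288 FPKM (SD, n = 2, as for every group mean below). Klf13 at 23.5 ± 0.891 FPKM and Klf10 at 22.3 ± 1.17 FPKM came next, and their libraries overlapped. Klf2 followed at 18.5 ± 1.54, Klf3 at 7.00 ± 0.160, Klf4 at 6.30 ± 0.102, Klf9 at 3.32 ± 0.497 and Klf7 at 2.23 ± 0.0262 FPKM, each apart from its neighbours. In LPS the order was Klf6, Klf13, Klf3, Klf7, Klf10, Klf2, Klf4 and Klf9, with Klf7 and Klf10 overlapping. Glul_LPS had the same order of means as LPS, but there Klf10 overlapped both Klf7 and Klf2. Klf3 and Klf7 thus stood above Klf2 and Klf4 in both groups with LPS, and below Klf2 in control.

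**Figure D1:**
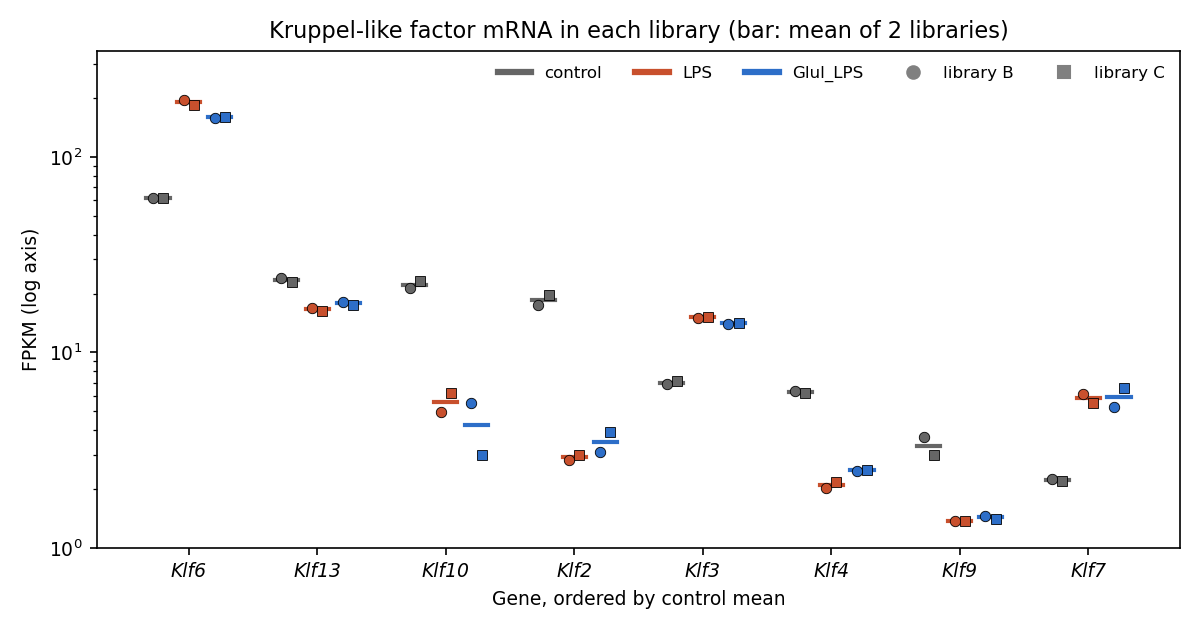
FPKM of the 8 Kruppel-like factor genes on a log axis, by group (control, LPS, and Glul_LPS, labelled as overexpressing Glul with LPS), with circles for library B, squares for library C and a bar for the mean of 2 libraries. Klf6, Klf3 and Klf7 lie higher in both groups with LPS than in control, and Klf2, Klf10, Klf4, Klf9 and Klf13 lie lower (Klf13 not so relative to the median gene); the Klf10 libraries of Glul_LPS stand apart at 5.54 and 2.98 FPKM.

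Summed over the 8 genes, the level was 143.5 and 145.9 FPKM in control, 245 and 235 in LPS, and 209 and 210 in Glul_LPS. Klf6 alone made up 42.8% and 42.4% of the sum in control, 79.9% and 78.9% in LPS, and 76.1% and 76.6% in Glul_LPS. The share of Klf2 was 12.1% and 13.4% in control, 1.15% and 1.27% in LPS, and 1.48% and 1.86% in Glul_LPS. The Klf6 level was 3.52 and 3.15 times the Klf2 level in control, 69.3 and 62.3 times in LPS, and 51.5 and 41.2 times in Glul_LPS. These shares are descriptions of FPKM, with no test, and the 3 groups do not overlap in them.

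**Figure D2:**
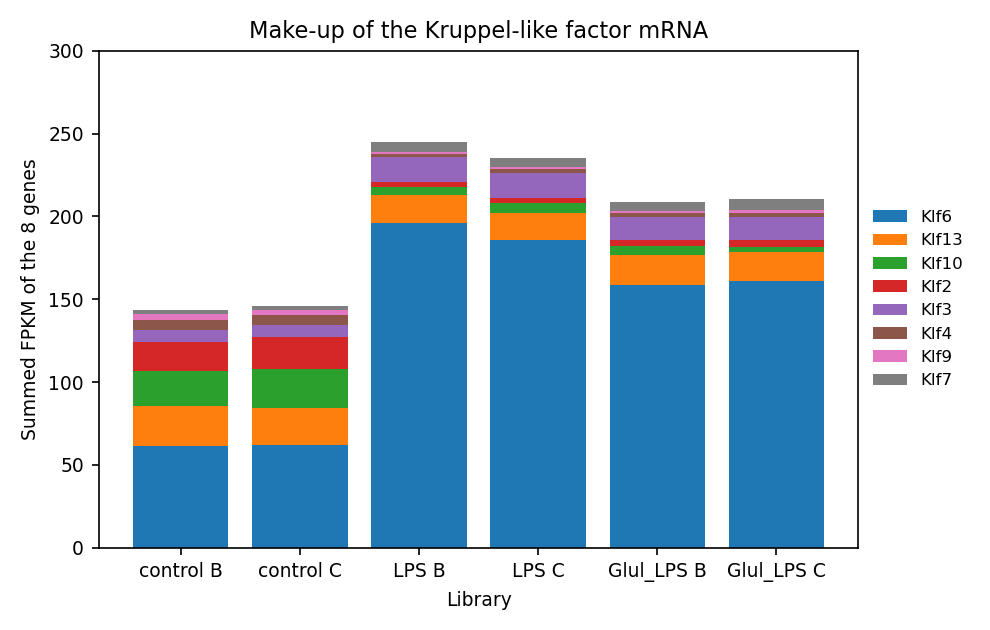
Summed FPKM of the 8 genes in each of the 6 libraries, stacked by gene from an axis that starts at 0. Klf6 fills 42.4% to 42.8% of the control bars and 76.1% to 79.9% of the bars with LPS, while the Klf2 and Klf10 segments shrink.

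The first comparison asked what LPS did to these genes. With LPS, Klf6, Klf7 and Klf3 rose and Klf2, Klf10, Klf4, Klf9 and Klf13 fell. All 8 passed the test, where 3 rose and 5 fell (limma on log2(FPKM + 1), Benjamini-Hochberg adjusted p under 0.05 over all tested genes). The count says little by itself, because 85.2% of all tested genes passed, 17.1% higher and 68.0% lower. The median tested gene moved by -0.50 on the log2 scale, so each change is also given relative to the median gene, with each library's median subtracted. On that scale 66.8% of tested genes passed, 34.6% higher and 32.2% lower, and 7 of the 8 members did, 3 higher and 4 lower, while Klf13 moved from a fall of 0.47 to a difference of 0.04 in the other direction (adjusted p 0.506). By size the members were spread over both ends of the distribution. Only 1.28% of tested genes had a lower log2 change than Klf2 and 3.24% a lower one than Klf10, and 4.21% had a higher one than Klf6, whereas Klf13 lay near the middle with 52.0% below it.

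**Figure D3:**
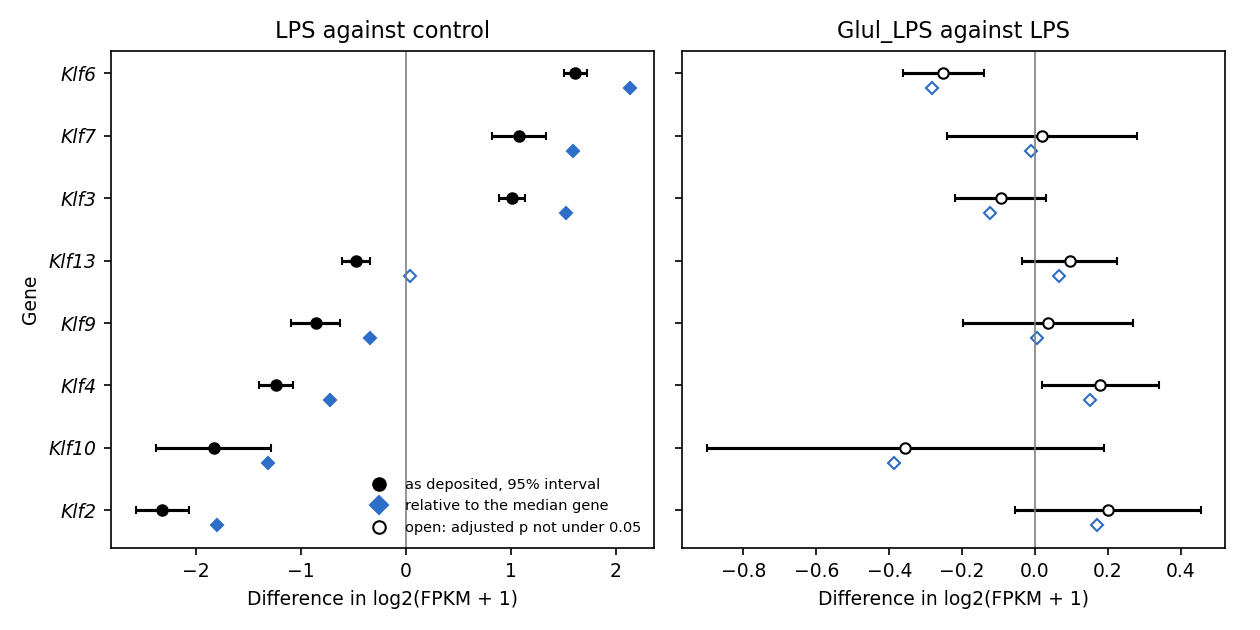
Difference in log2(FPKM + 1) for LPS minus control (left) and Glul_LPS minus LPS (right), with 95% intervals from limma; diamonds give the change relative to the median gene and open symbols those not past an adjusted p of 0.05. On the left 8 of 8 are filled as deposited and 7 of 8 relative to the median gene, with Klf13 at -0.47 and 0.04; on the right none is filled, and Klf6, at -0.25, has an interval from -0.36 to -0.14.

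**Figure D4:**
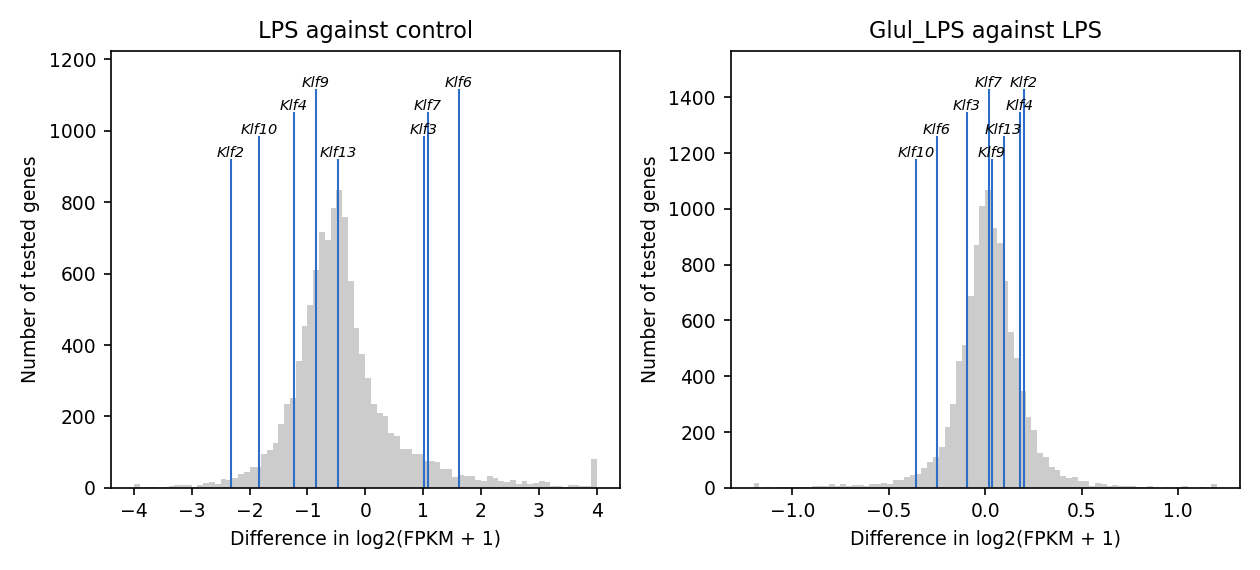
Histograms of the difference in log2(FPKM + 1) over the 10962 tested genes for LPS minus control (left) and Glul_LPS minus LPS (right), with a line at each of the 8 genes; values beyond the axis are put in the end bins. On the left the bulk of genes lies below 0, with a median of -0.50, and Klf2 and Klf6 lie far to either side; on the right the median is 0.02 and Klf10 and Klf6 lie lowest among the 8.

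Klf2, known in macrophages, T cells and endothelium for holding cells in a quiet state, had 17.4 and 19.6 FPKM in control, 2.82 and 2.98 in LPS, and 3.09 and 3.91 in Glul_LPS. Both control libraries were several-fold above all 4 libraries with LPS. The LPS mean was 6.39-fold lower than the control mean. On the log2 scale Klf2 fell by 2.32 ± 0.11 (SE; limma adjusted p 5.04e-06) and by 1.80 relative to the median gene (adjusted p 1.56e-05). It was the largest change among the 8 as deposited; relative to the median gene that of Klf6 was larger. The counts behind these values were 602 and 628 fragments in control and 84 and 94 in LPS.

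Klf4, a factor of monocyte differentiation and of the alternatively activated state, had 6.37 and 6.23 FPKM in control, 2.02 and 2.17 in LPS, and 2.49 and 2.51 in Glul_LPS. The control libraries were again above all others, and the means differed 3.01-fold. Klf4 fell by 1.24 ± 0.07 (SE; limma adjusted p 9.42e-06), and by 0.72 relative to the median gene (adjusted p 0.000114).

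The promoter windows of Klf2, Klf4, Klf6 and Klf9 are shown because these genes moved in opposite directions and because the regulators named below bind such elements. They come from RefSeq (GRCm38.p6), cut to the bases before both the RefSeq start and the start of the gene in the table: Klf2 chr8:72318812-72319032 (plus strand), Klf4 chr4:55532476-55532725 (minus strand), Klf6 chr13:5861239-5861481 (plus strand) and Klf9 chr19:23140976-23141225 (plus strand). Capitals mark every match, on either strand, to 9 motifs searched: the GC box GGGCGG, the CACCC box CCACACCC, the MEF2 element (CTA and TAG with 4 bases of any kind between them), the FOXO element GTAAACA, the NF-kB element (GGG, then 2 bases of any kind, then TTTCC), the AP-1 element TGANTCA, the cAMP response element TGACGTCA, the interferon response element (GAAA and GAAA with 2 bases of any kind between them) and the E-box CACGTG.
Klf2 promoter: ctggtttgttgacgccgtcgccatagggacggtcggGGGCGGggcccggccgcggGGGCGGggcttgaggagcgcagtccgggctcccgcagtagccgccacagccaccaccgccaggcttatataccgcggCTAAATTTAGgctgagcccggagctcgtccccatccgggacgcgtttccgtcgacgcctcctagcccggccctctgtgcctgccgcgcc
Klf4 promoter: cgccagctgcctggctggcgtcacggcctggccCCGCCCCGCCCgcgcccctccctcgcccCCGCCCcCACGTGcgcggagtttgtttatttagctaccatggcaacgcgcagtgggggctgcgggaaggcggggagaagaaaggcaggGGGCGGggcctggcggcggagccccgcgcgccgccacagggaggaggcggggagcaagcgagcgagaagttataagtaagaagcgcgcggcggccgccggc
Klf6 promoter: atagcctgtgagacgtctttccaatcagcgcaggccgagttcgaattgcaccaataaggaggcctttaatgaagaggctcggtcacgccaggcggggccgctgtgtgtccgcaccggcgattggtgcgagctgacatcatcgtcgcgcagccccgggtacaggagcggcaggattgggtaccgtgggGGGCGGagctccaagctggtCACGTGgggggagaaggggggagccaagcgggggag
Klf9 promoter: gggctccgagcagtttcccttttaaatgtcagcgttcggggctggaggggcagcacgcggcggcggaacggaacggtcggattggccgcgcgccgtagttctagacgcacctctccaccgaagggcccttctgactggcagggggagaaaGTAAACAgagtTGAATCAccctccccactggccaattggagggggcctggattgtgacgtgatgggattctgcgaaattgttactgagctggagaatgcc

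The set of RefSeq promoters used here had an entry for 7 of the 8 genes (none for Klf10). The search covered 250 bases before to 50 after the start. The GC box, the element that Sp and Kruppel-like factors themselves bind, was in 6 of the 7 windows (Klf9 was without it), beside 35.9% of all 27025 promoters and 65.6% of the 7886 promoters of tested genes. In the Klf2 window an MEF2 element, CTAAATTTAG, began at position -118 from the RefSeq start, and it was the only member of 7 with that motif, which 3.70% of all promoters and 2.74% of those of tested genes hold. In the Klf9 window a FOXO element began at -100 (in 3.55% of all promoters and 2.51% of those of tested genes) and an AP-1 element at -89 (in 7.93% and 5.03%). The E-box was in the Klf4 and Klf6 windows, beside 7.24% of all promoters and 11.0% of those of tested genes. The other 4 motifs had no match in the 7 windows, where CACCC, NF-kB, cAMP and interferon elements were in 3.84%, 1.78%, 3.48% and 3.45% of promoters of tested genes. A match describes the letters and is not a shown binding site. GC content of the 300-base windows ran from 58.3% for Klf7 to 76.7% for Klf3, where the median promoter of a tested gene had 61%. The Klf7 window lies wholly within the span given for that gene (chr1:64029447-64122282, minus strand), since its RefSeq start is at 64121389. Its GC box and GC content are thus not those of bases before the gene span.

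Klf6, an activator that is induced by injury and by inflammatory stimuli, had 61.4 and 61.8 FPKM in control, 196 and 186 in LPS, and 159 and 161 in Glul_LPS. The 3 groups did not overlap, and control was lowest. The LPS mean was 3.10-fold higher than the control mean. Klf6 rose by 1.61 ± 0.05 on the log2 scale (SE; limma adjusted p 8.65e-07) and by 2.13 relative to the median gene (adjusted p 2.79e-07). It was also the most deeply counted of the 8, with 4702 to 13933 fragments per library.

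Klf7, the close relative of Klf6 that is best known from neurons and adipocytes, had 2.24 and 2.21 FPKM in control, 6.15 and 5.49 in LPS, and 5.25 and 6.61 in Glul_LPS. Both control libraries were below the other 4, while LPS and Glul_LPS overlapped. Klf7 was 2.61-fold higher in LPS and rose by 1.08 ± 0.11 (SE; limma adjusted p 0.000119), by 1.60 relative to the median gene. Of its exon bases, 39.3% overlap Gm26649 on the opposite strand, which is not analysed here. Whether the counting used strand is not given in the sources used here, so reads of the 2 genes may not be told apart.

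Klf3, which represses through CtBP and is known from B cell, erythroid and fat biology, had 6.89 and 7.12 FPKM in control, 15.1 and 15.2 in LPS, and 14.0 and 14.2 in Glul_LPS. Replicates were close to each other and no groups overlapped. Klf3 was 2.16-fold higher in LPS and rose by 1.01 ± 0.05 (SE; limma adjusted p 7.83e-06), by 1.53 relative to the median gene. An overlap with Gm20033 on the opposite strand covers 3.59% of its exon bases.

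The 3 members of the group that binds Sin3 all fell as deposited, by different amounts, where 68.0% of all tested genes fell. Klf10, first described as an early gene of transforming growth factor beta (TGF-beta) signalling, had 21.4 and 23.1 FPKM in control, 4.94 and 6.18 in LPS, and 5.54 and 2.98 in Glul_LPS. Control lay above the rest, and LPS and Glul_LPS overlapped. Klf10 was 4.005-fold lower in LPS and fell by 1.83 ± 0.23 (SE; limma adjusted p 0.000315), by 1.31 relative to the median gene (adjusted p 0.00201). It had the largest error of the 8.

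Klf9, a target of the glucocorticoid receptor, had 3.67 and 2.97 FPKM in control, 1.37 and 1.38 in LPS, and 1.46 and 1.41 in Glul_LPS. The 4 libraries with LPS lay within a narrow range below both control libraries. Klf9 was 2.42-fold lower in LPS and fell by 0.86 ± 0.10 (SE; limma adjusted p 0.000205), by 0.34 relative to the median gene (adjusted p 0.0191). Its libraries with LPS held 72 to 81 fragments each, the fewest of the 8, and the pseudocount of 1 FPKM understates the fold at this level.

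Klf13, known in T cells as a regulator of Ccl5, had 24.1 and 22.9 FPKM in control, 16.9 and 16.3 in LPS, and 18.1 and 17.5 in Glul_LPS. No groups overlapped, but the differences were small. Klf13 was 1.41-fold lower in LPS and fell by 0.47 ± 0.05 (SE; limma adjusted p 0.000221), which is about the shift of the median gene: relative to it the difference was 0.04 in the other direction and did not pass (adjusted p 0.506). Ccl5 itself rose by 3.09 (adjusted p 9.44e-08), from a mean of 188.5 to 1611 FPKM.

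Short-lived transcripts often carry AU-rich elements in their 3′ UTR, built on the pentamer ATTTA. All 8 genes have at least 1 ATTTA in the annotated 3′ UTR of GENCODE M21 (the transcript with the longest 3′ UTR was used for each gene), and 70.9% of the 9608 tested protein-coding genes do. Per kilobase of 3′ UTR the pentamer came 0.582 times in Klf13, 1.02 in Klf4, 1.36 in Klf2, 1.87 in Klf3, 2.25 in Klf6, 2.48 in Klf9, 2.68 in Klf10 and 2.87 in Klf7, and the median tested gene had 1.25. The 3 genes with the fewest, Klf13, Klf4 and Klf2, fell with LPS as deposited, Klf13 not so relative to the median gene. Of the other 5, 3 rose and 2 fell. Of all tested genes 68.0% fell and 17.1% rose, so no link between the pentamer and direction is read from this. The longer form TATTTAT was in 4 of the 8, Klf2, Klf6, Klf7 and Klf10, and in 30.1% of tested protein-coding genes. A site of each is shown with 8 bases on either side and the heptamer in capitals, because these 4 include genes that rose and genes that fell (GRCm38: Klf2 chr8:72320991-72321013, plus strand; Klf6 chr13:5868493-5868515, plus; Klf7 chr1:64029787-64029809, minus; Klf10 chr15:38294923-38294945, minus).
Klf2 3′ UTR site: cagactgcTATTTATtggacctt
Klf6 3′ UTR site: acgtctctTATTTATgccttgag
Klf7 3′ UTR site: ttctctggTATTTATaatatatc
Klf10 3′ UTR site: tgtcttttTATTTATaggagttt

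The second comparison asked whether the libraries labelled as overexpressing Glul differed from LPS alone. None of the 8 passed (limma adjusted p), where 1.10% of all tested genes did, 0.547% higher and 0.556% lower. At an unadjusted p under 0.05 there were 2 of 8, Klf6 and Klf4, beside 17.5% of all tested genes. Relative to the median gene none of the 8 passed either, where 1.21% of tested genes did, 0.483% higher and 0.730% lower. A test on recovered fragments with voom called 1, Klf6, where it called 6.14% of all genes it tested. Restricting the test to genes above a mean of 5 FPKM also called Klf6 alone of the members, where 4.56% of all genes passed.

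Klf6 came nearest to the threshold. Its Glul_LPS libraries, at 159 and 161 FPKM, lay below the LPS libraries at 196 and 186 and far above control. The log2 change was -0.25 ± 0.05 (SE; 95% interval -0.36 to -0.14; limma p 0.00136, adjusted p 0.0709). With voom on recovered fragments the change was -0.25 with an adjusted p of 0.00769, and with only genes above a mean of 5 FPKM tested the adjusted p was 0.0379. Over all alternatives run the change stayed between -0.29 and -0.21, with adjusted p from 0.00769 to 0.272.

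Klf4 differed by 0.18 (95% interval 0.02 to 0.34, limma adjusted p 0.247). Klf2 differed by 0.20 (-0.05 to 0.45, adjusted p 0.395). The upper ends of these intervals are ratios of 1.37 for Klf2 and 1.27 for Klf4 on the FPKM + 1 scale, and the lower ends 0.963 and 1.01. Klf3 differed by -0.09 (-0.22 to 0.03; adjusted p 0.413), Klf13 by 0.10 (-0.04 to 0.23; adjusted p 0.427) and Klf9 by 0.04 (-0.20 to 0.27; adjusted p 0.897). For Klf7 the difference was 0.02 (-0.24 to 0.28; adjusted p 0.955), and it turned to -0.01 relative to the median gene.

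Klf10 had the lowest value, -0.36, and the widest interval (-0.90 to 0.19; limma adjusted p 0.478). It rests on 1 library. In Glul_LPS replicate C had 142 fragments of Klf10 and replicate B 287, an FPKM ratio of 0.538 with a 95% counting interval of 0.437 to 0.660, so the 2 libraries differed by more than counting error. Without Glul_LPS replicate C the difference was 0.0018, and without replicate B -0.71. Between LPS replicates the same ratio was 1.25 (1.06 to 1.49). Counting intervals excluded a ratio of 1 in 8 of the 24 pairs of replicate libraries over the 8 genes and 3 groups, and they cover counting error only.

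Glul_LPS was also set against control, which shares libraries with both comparisons above, so the values are given side by side and not as separate support. All 8 passed again, 3 higher and 5 lower, where 84.3% of all tested genes did, 16.9% higher and 67.4% lower. The log2 changes were 1.36 for Klf6 (1.61 in LPS), 1.10 for Klf7 (1.08) and 0.92 for Klf3 (1.01). They were -2.12 for Klf2 (-2.32 in LPS), -2.19 for Klf10 (-1.83), -1.06 for Klf4 (-1.24), -0.82 for Klf9 (-0.86) and -0.38 for Klf13 (-0.47). Relative to the median gene 7 passed (3 higher, 4 lower; all tested genes 65.9%, 34.2% higher and 31.7% lower) and Klf13 turned to 0.11 (adjusted p 0.123).

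Of the other 9 Klf genes listed, 8 are in the table and 3 passed the filter. Klf8, which like Klf3 binds CtBP, had 1.02 and 0.997 FPKM in control, 3.70 and 2.93 in LPS, and 2.02 and 2.17 in Glul_LPS. With LPS it rose by 1.10 (limma adjusted p 8.77e-05), and Glul_LPS against LPS was -0.47 (adjusted p 0.093; -0.64 with adjusted p 0.00736 in voom). Klf16 fell by 0.72 (adjusted p 0.000119) and by 0.20 relative to the median gene (adjusted p 0.0457), and did not pass with quantile normalization (-0.19, adjusted p 0.0556). Its Glul_LPS against LPS value was -0.09. Klf11 fell by 0.57 (adjusted p 0.00104), and relative to the median gene it was at -0.05 and did not pass (adjusted p 0.636). A grouping by cofactor was made after the values were seen. The 2 tested genes that bind CtBP rose and the 5 tested genes that bind Sin3 fell. Of all tested genes 17.1% rose and 68.0% fell. Relative to the median gene the Sin3 group had 3 that fell, without Klf11 and Klf13, where 32.2% of all tested genes fell and 34.6% rose. The 4 tested activators split, 2 higher and 2 lower, on both scales. With so few genes and no test, no pattern by cofactor is read from these counts.

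Counts in the gene lists that follow are read against all tested genes, of which 68.0% fell and 17.1% rose with LPS as deposited, and 32.2% fell and 34.6% rose relative to the median gene. The Sp proteins bind the same GC boxes. All 4 tested Sp genes fell with LPS (median log2 change -0.54, all tested genes -0.50), Sp3 by 1.02, Sp1 by 0.72, Sp4 by 0.37 and Sp2 by 0.36 (largest limma adjusted p 0.00609). Relative to the median gene Sp3 and Sp1 fell, Sp2 turned to a rise of 0.16 (adjusted p 0.036), and Sp4 turned to 0.15 and did not pass. None of the 4 passed in Glul_LPS against LPS, with Sp3 at 0.15 and Sp4 at 0.05.

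Among 11 corepressors and coactivators that Kruppel-like factors bind, 2 rose and 6 fell with LPS (median -0.38; all tested genes 17.1% and 68.0%), and relative to the median gene 5 rose and 2 fell (34.6% and 32.2%). Sin3a, a scaffold bound by Klf9, Klf10 and Klf13, fell by 1.01 (limma adjusted p 2.33e-05) and Ncor1 by 0.78 (adjusted p 0.000174). Their falls relative to the median gene were 0.49 for Sin3a (adjusted p 0.000704) and 0.26 for Ncor1 (adjusted p 0.039). The related Sin3b was at -0.13 and did not pass (adjusted p 0.078). Relative to the median gene Sin3b rose by 0.39 (adjusted p 0.00112). The acetyltransferase Crebbp fell by 0.60 and the deacetylase Hdac3 by 0.56, and neither passed relative to the median gene. None passed in Glul_LPS against LPS, where Ep300 was at -0.17 (adjusted p 0.192) and Hdac1 at 0.11 (adjusted p 0.499).

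Of 10 regulators known to act on Klf2 or Klf4, 9 fell and 1 rose with LPS (median -0.74; all tested genes 68.0% and 17.1%), and relative to the median gene 4 fell and 1 rose (32.2% and 34.6%). The list includes the kinases and MEF2 factors that act on Klf2 in endothelium. Of these Mef2d had 31.1 and 29.3 FPKM in control and 3.27 and 3.87 in LPS, and fell by 2.77 (limma adjusted p 1.4e-06). Mef2c fell by 1.84 (adjusted p 8.35e-06) and Mapk7, which encodes ERK5, by 1.69 (adjusted p 2.17e-06), all 3 also relative to the median gene. Mef2a fell by 0.72 and Map2k5, which encodes the kinase of ERK5, by 0.73, but relative to the median gene neither passed (-0.20 with adjusted p 0.0503, and -0.21 with adjusted p 0.243). Foxo3, a forkhead factor of the family that acts on Klf2 in T cells, had 14.6 and 14.7 FPKM in control and 0.869 and 0.657 in LPS, and fell by 3.15 (adjusted p 1.39e-06). Relative to the median gene Foxo3 fell by 2.64 (adjusted p 2.99e-06). Foxo1, of the same family, fell by 0.755 as deposited (adjusted p 0.00104). Its value relative to the median gene was -0.24 and did not pass (adjusted p 0.129). Sirt1, a deacetylase, was the 1 that rose. None of the 10 passed in Glul_LPS against LPS, with Foxo3 at 0.36 (adjusted p 0.164) and Sirt1 at -0.31 (adjusted p 0.182). In voom both passed, Foxo3 at 0.73 (adjusted p 0.0245) and Sirt1 at -0.33 (adjusted p 0.0394), and over all alternatives the adjusted p reached 0.413 and 0.472.

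Of 13 reported targets of Klf2, 11 were tested, and 7 rose and 2 fell with LPS (median 1.03). The procoagulant F3, which encodes tissue factor, rose by 2.33 (limma adjusted p 4.18e-06), the cell cycle inhibitor Cdkn1a by 2.28 (adjusted p 5.17e-07) and the adhesion molecule Vcam1 by 2.27 (adjusted p 8.35e-07). Thbd, which encodes the anticoagulant thrombomodulin and is known to be driven by Klf2 in endothelium, fell by 2.25 (adjusted p 3.43e-05). S1pr1, a target in T cells, was the other that fell. For Glul_LPS against LPS, F3 was the only 1 of the 11 to pass. It had 5.55 and 5.69 FPKM in LPS and 2.93 and 2.83 in Glul_LPS, and fell by 0.77 (adjusted p 0.0323). The call was lost with a pseudocount of 0.5 FPKM (adjusted p 0.0641) and without any 1 of the 4 libraries compared (adjusted p 0.0921 to 0.175), and over all alternatives the adjusted p ran from 0.000552 in voom to 0.177 with no filter. Itgb7, an integrin that Klf2 restrains in lymphocytes, was at -0.69 and did not pass (adjusted p 0.0709). It passed in voom (-0.70, adjusted p 0.000273), above a mean of 5 FPKM (0.0236) and without Glul_LPS replicate B (-0.88, adjusted p 0.0348), and over all alternatives the adjusted p reached 0.311.

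Of 11 reported targets of Klf4, 9 were tested, and 5 rose and 4 fell with LPS (median 0.72), 6 and 1 relative to the median gene. Nos2 is also on the list used to check the LPS response, and Cdkn1a on that of Klf2 targets. Nos2 rose by 6.76, Ptgs2, the inducible cyclooxygenase, by 5.44, the chemokine Ccl5 by 3.09 and Cdkn1a by 2.28 (largest limma adjusted p 4.31e-06). None of the 9 passed for Glul_LPS against LPS. Chil3, a marker of alternative activation, was at -0.43 (adjusted p 0.0615), and Nos2 at -0.63 (adjusted p 0.0671). Chil3 passed relative to the median gene (adjusted p 0.0449) and above a mean of 5 FPKM (0.0253), and over all alternatives its adjusted p reached 0.22. Nos2 passed in voom (-0.63, adjusted p 0.000126) and above a mean of 5 FPKM (0.0209), and over all alternatives its adjusted p reached 0.294.

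Klf9 was set beside 8 genes of the glucocorticoid response, of which 6 were tested. With LPS 3 fell and 1 rose (median -1.06), and relative to the median gene 3 fell and 3 rose. Tsc22d3, which encodes the glucocorticoid-induced leucine zipper, fell by 3.78 (limma adjusted p 3.83e-07), the clock gene Per1 by 3.14 (adjusted p 1.68e-06) and the kinase gene Sgk1 by 2.02 (adjusted p 2.83e-05). The receptor gene Nr3c1 rose by 1.17 (adjusted p 2.94e-05). In Glul_LPS against LPS none of the 6 passed, with Sgk1 at 0.24 and Dusp1 at -0.09.

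Klf10 was set beside 10 genes of the TGF-beta pathway. As deposited 7 fell and none rose with LPS (median -0.60), near the 68.0% of all tested genes that fell, and relative to the median gene 4 fell and 4 rose (all tested genes 32.2% and 34.6%). Those that fell most were Ski, a corepressor of Smads, by 2.11 (limma adjusted p 8.2e-07), the signal transducer Smad3 by 1.83 (adjusted p 5.04e-06), the inhibitor Smad7 by 1.77 (adjusted p 5.2e-06) and the receptor Tgfbr2 by 0.81 (adjusted p 0.000179). In Glul_LPS against LPS none of the 10 passed, with Smad7 at 0.25 and Smad3 at -0.14.

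**Figure D5:**
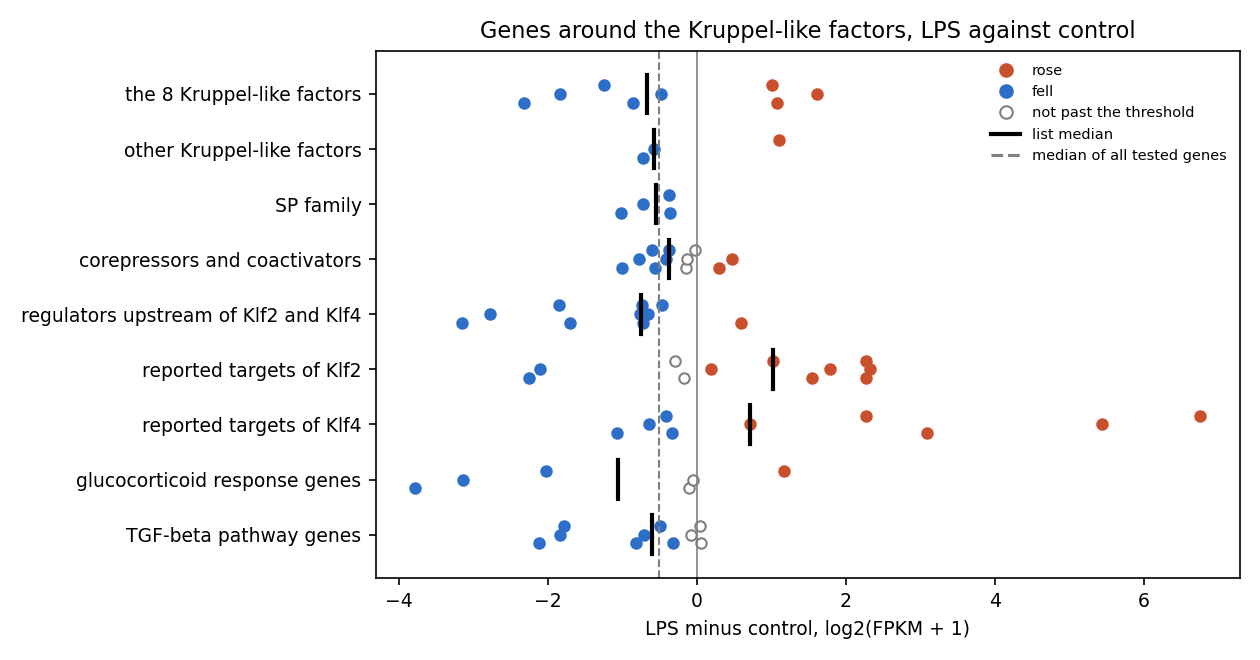
Difference in log2(FPKM + 1), LPS minus control, for the tested genes of each list, with 1 point per gene and a black bar at the list median; the dashed line is the median of all tested genes, -0.50. Regulators upstream of Klf2 and Klf4 lie mostly below 0 (9 of 10 fell as deposited, 4 relative to the median gene), and reported targets of Klf2 and Klf4 have medians of 1.03 and 0.72.

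Genes with the most similar pattern were sought for each member by Euclidean distance between log2(FPKM + 1) values centred per gene, over the 6 libraries and 5461 or 5462 tested genes with a mean of at least 5 FPKM, leaving out predicted genes and pseudogenes by their symbols. The closest to Klf2 were Slc25a45 (distance 0.137), Zfp362 (0.142) and Zc3h12d (0.166), and to Klf4 Plxnd1 (0.0160), Casd1 (0.0619) and Galc (0.0650). Klf6 was nearest to Inpp5b (0.0730), Fzd1 (0.0954) and Mob3c (0.115), and Klf7 to Bfar (0.0969), Nr3c1 (0.147) and Arel1 (0.147). Klf3 was nearest to Ppm1b (0.0317), Stip1 (0.0695) and Sertad2 (0.0790). For Klf9 they were Hsdl1 (0.0927), Nelfb (0.0974) and Phf2 (0.0983), and for Klf13 Wdr33 (0.0420), Spcs3 (0.0480) and Rbbp4 (0.0488). Klf10 had no close neighbour, with Dhrs3 at 0.496, Tpcn2 at 0.521 and S1pr1 at 0.551. The distances describe 6 libraries in 3 groups and carry no test.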

How the data were processed

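RNA from 6 libraries was analysed as FPKM values per gene, which the authors deposited in 1 table. GRCm38, HISAT2 2.1.0, HTSeq 0.6.0, CASAVA and DESeq2 appear in the submitters' processing notes without an order. Not given in the sources used here: the annotation and the strand setting. The table held 6 further columns of per-sample values that match no sample here, and they were not used.

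Values were analysed as log2(FPKM + 1), so a fold change is understated for low genes. The test covered the 10962 of 24752 genes that reached 1 FPKM in 2 or more libraries. All 3 groups entered 1 fit in limma 3.58.1 (R 4.3.3) with a mean-variance trend, two-sided, with Benjamini-Hochberg adjustment over all tested genes. The calls of LPS against control, and of no other comparison, were tested on simulated data. The outcome is not reported here and is not used as support. Where a symbol had several rows, the row with the highest mean was used. FPKM times exon length (GENCODE M21) gave whole fragments within 0.01 for 22655 genes in all libraries, and a length solved from the values did so for 1053 more, Klf9 and Klf10 among them. These recovered fragments were used for voom and for counting intervals. Library totals were 15649764 to 18691669.

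Named genes were the 8 members, up to 4 genes of each list with the largest change in LPS against control, up to 2 with the smallest p in Glul_LPS against LPS, Glul, the 3 genes nearest each member in pattern and the top marker of each cell type. The members and the lists were chosen with earlier results of these data known. S1pr1, Mef2a, Map2k5, Foxo1, Sin3b, Flt3, Zbtb46, Xcr1 and the macrophage markers other than Lyz2 are named beyond the rule. Promoter sequences are from RefSeq and 3′ UTR sites from GENCODE M21. Alternatives were other pseudocounts, filters, TPM, quantile normalization, median centring, 2-group fits, the replicate letter as a block, no trend, voom and leaving out each library.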

Additional observations from a re-analysis of the deposited data

How the results depend on the processing

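The counts of members that rose and fell in LPS against control (3 and 5) and in Glul_LPS against control (3 and 5), and of 0 in Glul_LPS against LPS, did not change when any 1 library was left out: they ranged from 3 to 3, 5 to 5 and 0 to 0. A group left with 1 library is assumed to vary like the other groups. Without a library of either arm, the fits of Glul_LPS against LPS called few genes of any kind (counts below), so the 0 there says nothing of stability. With only genes above a mean of 5 FPKM tested, 5 of the 8 members were tested and 3 fell in LPS against control and 3 in Glul_LPS against control; fewer genes tested is the cause. In Glul_LPS against LPS, 1 member was lower with that filter and 1 with voom, in both cases Klf6. The cause was not tested for voom. Some single values turned direction. The Klf7 value in Glul_LPS against LPS went from 0.02 to -0.0080 with quantile normalization, -0.011 with median centring, -0.05 without LPS replicate C and -0.12 without Glul_LPS replicate C, and Sp4 to -0.0018 without Glul_LPS replicate C. Leaving out 1 library put Klf10 anywhere from -0.71 (without Glul_LPS replicate B) to 0.0018 (without replicate C). With median centring Klf13 turned to 0.044 in LPS against control and 0.11 in Glul_LPS against control, Sp4 to 0.15 and Sp2 to 0.16, and with quantile normalization Sp4 turned to 0.18 and Sp2 to 0.038. Klf9 in Glul_LPS against control no longer passed with quantile normalization (-0.26, limma adjusted p 0.0553).

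The differences between replicates C and B correlated at -0.02, -0.05 and -0.00 between groups over 10962 genes. An effect of the letter that is small or confined to few genes could be missed this way. What the letters stand for thus stays unknown. With the replicate letter as a block, 3 members rose and 5 fell in LPS against control and 0 passed in Glul_LPS against LPS. Over all genes the count of calls in Glul_LPS against LPS depended on the fit, from 60 higher and 61 lower to 37 and 50 with the block, 18 and 24 without a trend, 20 and 39 with 2 groups only, 39 and 26 with no filter, 136 and 128 above a mean of 5 FPKM, 357 and 291 in voom, 20 and 37 without either control library, 1 and 0 without LPS replicate B, 4 and 0 without LPS replicate C, 19 and 19 without Glul_LPS replicate B and 3 and 2 without Glul_LPS replicate C. The planned comparison of protein identity was not run, since no protein table was used here.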
